A study of Homo sapiens with 6 samples.

Results

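The chromosome 19 ZNF genes were the 251 protein-coding genes of the count files whose symbol is ZNF followed by a number and whose location is chromosome 19, out of 60669 genes in all. They were chosen by name and place alone, and no measured value entered the choice. A further 267 ZNF-numbered protein-coding genes lie on other chromosomes, and 1219 other protein-coding genes lie on chromosome 19. The counts came from total RNA of 293T cells, a human embryonic kidney line that carries the SV40 large T antigen. There were 3 groups of 2 libraries: cells with an MLL2 knockout made by CRISPR/Cas9 (MLL2 KO), cells with PRMT1 knocked down by a short hairpin RNA (PRMT1 KD), and control cells labelled wild type and untreated. The design asks which genes are expressed differently when either protein is depleted. MLL2 is a histone H3 lysine methyltransferase and PRMT1 an arginine methyltransferase. The labels do not say whether the knockout is 1 clone, how long the hairpin acted, or whether cells of the other groups also carried one. Alignment names in the file headers read MKshNT for MLL2 KO, WTshPR for PRMT1 KD and WTshNT for control, so a hairpin in all 3 groups is possible, but no label explains these names.

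Most ZNF genes of chromosome 19 code for proteins with a row of C2H2 zinc fingers, each of which reads a few bases of DNA, and many also carry a KRAB domain. KRAB recruits TRIM28, which brings the histone methyltransferase SETDB1, HP1 proteins and other silencing factors to the bound site, often a transposable element. The genes arose by repeated tandem duplication, stand in clusters, and are themselves marked at their zinc finger exons by repressive chromatin that ZNF274, one of the family, helps to place.

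The 6 libraries held between 20061471 and 22351532 counts. In 293T cells 204 of the 251 genes had enough reads to be tested by edgeR's filter, and the other 47 did not, 13 of them with a count of 0 in every library. A gene is called higher or lower where the Benjamini-Hochberg adjusted p of edgeR's quasi-likelihood test is under 0.05 over all 17575 genes tested. Levels are in CPM, counts scaled for library size, and a standard error (SE) follows a log2 fold change after ±. The design speaks of 2 biological replicates a group, with no word on separate cultures. The p-values rest on how far these 2 libraries a group vary, and part of that variation may be technical. PRMT1 had 38.2 and 34.9 CPM in the PRMT1 KD libraries and 306 and 319 CPM in the control libraries, a log2 fold change of -3.10 ± 0.09 (adjusted p = 5.5e-16, edgeR). In MLL2 KO PRMT1 had 406 and 425 CPM and was called higher than in control (0.41 ± 0.08, adjusted p = 8.9e-04, edgeR). KMT2B and KMT2D have both gone by the name MLL2. KMT2B had 7.12 and 7.36 CPM in MLL2 KO and 6.74 and 7.53 CPM in control, and KMT2D had 20.8 and 24.2 CPM in MLL2 KO and 22.5 and 17.0 CPM in control. Neither was called between those groups, and since a small edit need not change a gene's read count, these values do not check the knockout label. In PRMT1 KD both were called higher than in control: KMT2B, with 13.4 and 26.7 CPM, by a log2 fold change of 1.49 ± 0.24 (adjusted p = 3.1e-05, edgeR), and KMT2D, with 37.8 and 95.5 CPM, by 1.76 ± 0.25 (adjusted p = 8.4e-06, edgeR). For both genes the PRMT1 KD libraries differed from each other. Summed levels of 7 genes known from 293T cells were 893 and 888 CPM in MLL2 KO, 1085 and 1005 CPM in PRMT1 KD and 1223 and 1246 CPM in control, while those of 5 other cell types stayed at or under 3.09 CPM in every library. The 293T genes in that sum moved in different directions. VIM was called higher in PRMT1 KD (log2 fold change 0.55), while KRT8, NEFL and NEFM were called lower in both depletions. KRT18 was called lower in PRMT1 KD and LIN28B in MLL2 KO. PAX2 had at most 0.541 CPM in any library and was not called. Whether these shifts in the 293T genes had a part in the values below was not tested. Fewer cells that express a gene and less RNA of it per cell cannot be told apart in such bulk RNA.

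Summed over all 251 genes, ZNF transcripts of chromosome 19 were more abundant after either depletion. Their levels added up to 4515 and 4497 CPM in MLL2 KO, to 4717 and 4680 CPM in PRMT1 KD and to 3454 and 3472 CPM in control. All 4 depleted libraries therefore stood above both control libraries. The shift was spread over many genes: on a log2 scale with 0.5 CPM added, the median tested gene stood 0.31 above the control mean in each MLL2 KO library and 0.42 above it in each PRMT1 KD library, and within 0.007 of it in the control libraries. The medians over all 17575 genes tested lay between -0.041 and 0.0028 in the same 6 libraries.

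**Figure D1:**
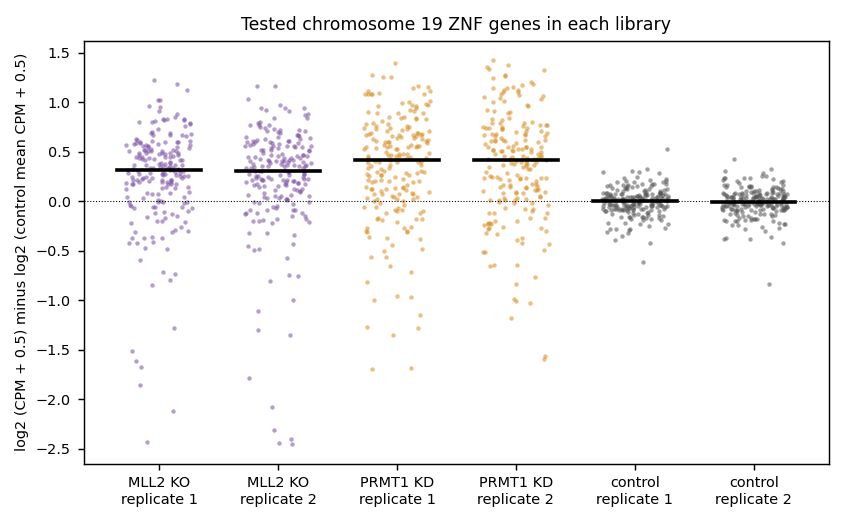
Each point is 1 of the 204 tested chromosome 19 ZNF genes in 1 library; the vertical axis is its log2 (CPM + 0.5) minus that of the control mean, and the black bar is the median. The bars stand at 0.31 in both MLL2 KO libraries and at 0.42 in both PRMT1 KD libraries, against 0.007 and -0.007 in the control libraries.

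MLL2 KO cells had higher levels of 69 of the 204 tested chromosome 19 ZNF genes and lower levels of 9. Over all genes tested, 10.3% were called higher and 12.1% lower, against 33.8% and 4.41% of the tested ZNF genes. The median log2 fold change was 0.33 for these genes and -0.01 over all genes. Both knockout libraries lay above both control libraries for 131 of the 204, or 64.2%, where 30.1% of all genes did so, and below both for 27, or 13.2%, where 32.5% did so. Most increases were modest: 5 of the 69 reached 2-fold, or 2.45% of the tested ZNF genes beside 0.706% of all genes. Of the 9 lower genes, 7 fell by 2-fold or more, 3.43% beside 4.5% of all genes. The count of higher genes was 44 without control replicate 1, and the count of lower genes was 5 without control replicate 2.

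PRMT1 KD cells had higher levels of 90 of the 204 and lower levels of 12. The shares were 44.1% and 5.88%, against 22.2% higher and 25.3% lower over all genes tested. The median log2 fold change was 0.48 for the tested ZNF genes and -0.04 over all genes. Both knockdown libraries exceeded both control libraries for 133 of the 204, or 65.2%, against 35.0% of all genes, and fell below both for 31, or 15.2%, against 38.5%. A fold of 2 or more was reached by 22 of the higher genes (10.8%, against 6.07% of all genes) and by 6 of the lower ones (2.94%, against 10.2%). Reads in exons that overlap another gene on the same strand may be shared between the genes or left out. Without the genes that have such exons, 49 of 129 were higher and 4 lower in MLL2 KO, and 54 were higher and 5 lower in PRMT1 KD. Of the tested genes given values here, ZNF28, ZNF112, ZNF358, ZNF404, ZNF431, ZNF433, ZNF446, ZNF497, ZNF506, ZNF536, ZNF551, ZNF580, ZNF581, ZNF586, ZNF701, ZNF726, ZNF737, ZNF761, ZNF776, ZNF808, ZNF813 and ZNF8-ERVK3-1 have them, and their values are less certain for it.

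The comparisons with control share their control libraries, so their calls are not independent. The fold changes of PRMT1 KD against MLL2 KO set no control library against another group. The control libraries still enter the gene filter, the scaling and the estimate of spread of that test. In it 44 of the 204 were higher in PRMT1 KD and 26 lower. These were 21.6% and 12.7%, against 19.4% and 21.4% of all genes. At 2-fold or more, 11 were higher and 5 lower, or 5.39% and 2.45% against 5.92% and 5.46%. Without MLL2 KO replicate 1 the count of higher genes in that comparison was 27. The median log2 fold change of PRMT1 KD over MLL2 KO was 0.09 for the tested ZNF genes and 0.01 over all genes.

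**Figure D2:**
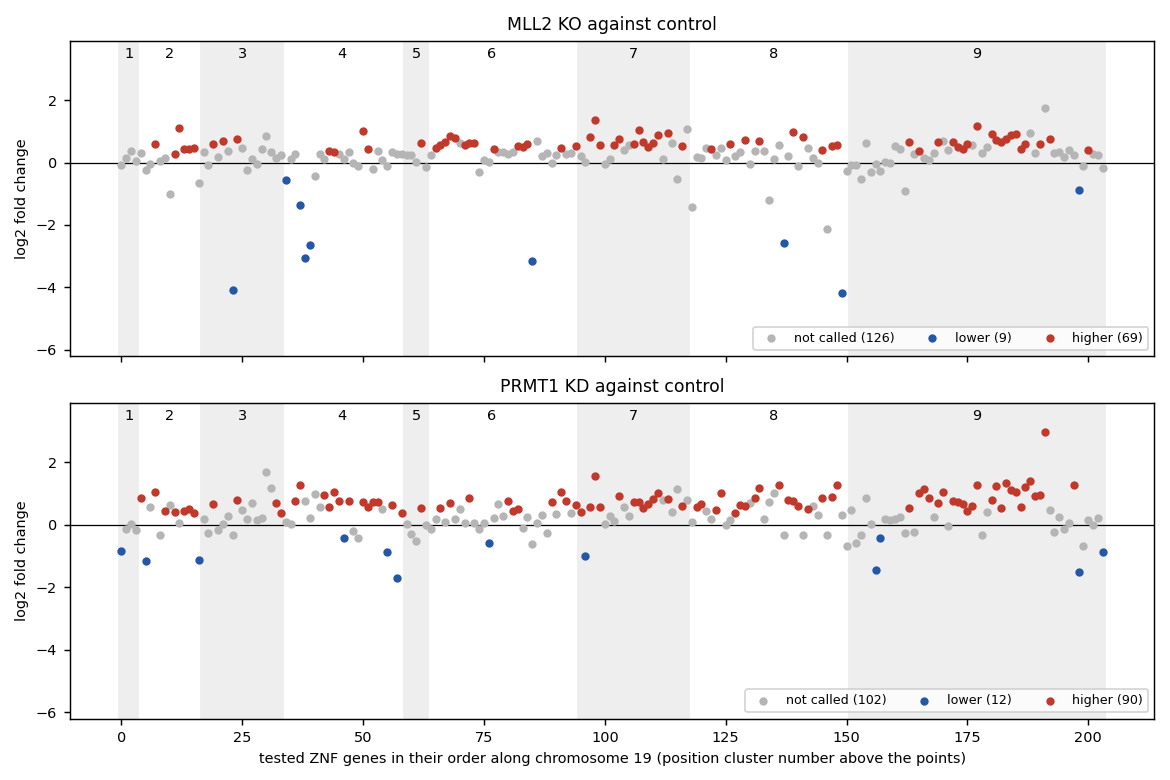
Log2 fold change of each tested chromosome 19 ZNF gene in MLL2 KO (upper panel) and PRMT1 KD (lower panel) against control, with genes in their order along the chromosome and grey bands and numbers for position clusters. Genes called higher (69 and 90) are spread over the clusters, while a few genes called lower in MLL2 KO, such as ZNF433 at -4.09, lie far below 0; the lowest point, ZNF813, rests on 3 counts in MLL2 KO.

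Among the genes higher in both depletions were ZNF134, ZNF776 and ZNF549, which lie in the last cluster before the end of the long arm. ZNF134 had 26.4 and 30.4 CPM in MLL2 KO, 42.1 and 40.5 CPM in PRMT1 KD and 17.7 and 17.0 CPM in control. Both depleted pairs lay wholly above the control pair, and the log2 fold change was 0.71 ± 0.13 in MLL2 KO (adjusted p = 3.9e-04, edgeR) and 1.25 ± 0.13 in PRMT1 KD (adjusted p = 6.6e-08, edgeR). ZNF776 had 33.1 and 35 CPM in MLL2 KO, 39.5 and 39.8 CPM in PRMT1 KD and 18.8 and 17.8 CPM in control. Its groups did not overlap either, with log2 fold changes of 0.89 ± 0.12 in MLL2 KO (adjusted p = 2.0e-05, edgeR) and 1.11 ± 0.12 in PRMT1 KD (adjusted p = 1.6e-07, edgeR), and its exons overlap another gene on the same strand. ZNF549 stood at 13.3 and 11.9 CPM in MLL2 KO and 12.4 and 14.7 CPM in PRMT1 KD, against 5.39 and 5.71 CPM in control. Its log2 fold change was 1.18 ± 0.19 in MLL2 KO (adjusted p = 1.7e-04, edgeR) and 1.29 ± 0.19 in PRMT1 KD (adjusted p = 1.2e-05, edgeR).

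The promoters of these 3 genes, and of 3 genes that were lower in MLL2 KO, are shown here for a motif that is common in the group. The windows run from 250 bases before to 50 bases after the RefSeq start on GRCh38.p14, the sequence the files' hg38 build shares, read 5′ to 3′ on the gene's strand. The capitals mark each match to the core of ETS family binding sites, CCGGAA, or its reverse complement, TTCCGG.
ZNF134 (chr19:57613992-57614291, + strand): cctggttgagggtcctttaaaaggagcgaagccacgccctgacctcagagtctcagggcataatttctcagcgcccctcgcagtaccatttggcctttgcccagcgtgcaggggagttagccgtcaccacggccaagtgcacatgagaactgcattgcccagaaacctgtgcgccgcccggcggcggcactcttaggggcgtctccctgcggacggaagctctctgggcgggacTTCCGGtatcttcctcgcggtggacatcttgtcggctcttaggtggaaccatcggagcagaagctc
ZNF776 (chr19:57746565-57746864, + strand): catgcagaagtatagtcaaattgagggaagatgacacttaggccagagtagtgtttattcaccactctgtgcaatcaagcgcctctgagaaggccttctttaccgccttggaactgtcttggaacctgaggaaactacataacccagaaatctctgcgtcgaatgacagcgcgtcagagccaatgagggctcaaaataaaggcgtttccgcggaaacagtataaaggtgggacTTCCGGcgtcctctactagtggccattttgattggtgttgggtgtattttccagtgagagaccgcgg
ZNF549 (chr19:57527106-57527405, + strand): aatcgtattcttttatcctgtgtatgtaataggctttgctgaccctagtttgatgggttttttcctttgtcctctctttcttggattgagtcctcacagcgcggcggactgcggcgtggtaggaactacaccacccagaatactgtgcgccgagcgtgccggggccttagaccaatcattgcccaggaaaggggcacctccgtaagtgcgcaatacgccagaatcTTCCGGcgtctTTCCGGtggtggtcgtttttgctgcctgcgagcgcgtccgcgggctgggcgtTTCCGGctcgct
ZNF813 (chr19:53467483-53467782, + strand): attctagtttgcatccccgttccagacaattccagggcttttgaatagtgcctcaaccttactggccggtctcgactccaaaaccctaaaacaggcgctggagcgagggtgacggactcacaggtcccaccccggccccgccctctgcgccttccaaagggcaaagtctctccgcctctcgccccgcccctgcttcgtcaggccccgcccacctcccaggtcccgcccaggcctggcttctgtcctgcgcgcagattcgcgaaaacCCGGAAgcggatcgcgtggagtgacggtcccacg
ZNF737 (chr19:20565732-20566031, - strand): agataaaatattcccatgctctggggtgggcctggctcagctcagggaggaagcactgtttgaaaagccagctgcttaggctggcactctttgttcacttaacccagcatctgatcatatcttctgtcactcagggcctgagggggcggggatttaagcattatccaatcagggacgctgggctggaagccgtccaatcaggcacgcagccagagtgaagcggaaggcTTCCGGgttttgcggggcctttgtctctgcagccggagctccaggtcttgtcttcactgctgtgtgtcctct
ZNF433 (chr19:12035630-12035929, - strand): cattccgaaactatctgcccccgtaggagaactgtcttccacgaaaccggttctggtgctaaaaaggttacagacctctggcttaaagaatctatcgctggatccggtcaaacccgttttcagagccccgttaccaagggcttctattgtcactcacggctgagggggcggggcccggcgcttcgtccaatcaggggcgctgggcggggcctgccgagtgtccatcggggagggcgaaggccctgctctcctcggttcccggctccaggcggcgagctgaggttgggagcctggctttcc
In ZNF134 and ZNF776 the match begins 16 and 17 bases before the start, and in ZNF549 matches begin 25 and 14 bases before the start and at base 39 after it. ZNF737, lower in MLL2 KO, has a match 22 bases before the start, ZNF813 has one at base 17 after it, and the ZNF433 window holds none.

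RefSeq promoters matched 219 of the 251 genes by symbol. The ETS core occurred in 54.8% of them, in 44.4% of 216 promoters of ZNF genes on other chromosomes and in 23.0% of 15299 promoters of protein-coding genes. Within 50 bases of the start it occurred in 43.7% of 183 promoters of tested chromosome 19 ZNF genes, in 30.6% for ZNF genes elsewhere and in 12.3% of protein-coding genes. The TATA box letters TATAAA were found in 2.28% of the chromosome 19 ZNF promoters and in 9.71% of protein-coding ones. The YY1 core ATGGCG occurred in 19.2% against 14.5%, and the NRF1 core GCATGCG in 5.94% against 5.2%; both strands were searched for each motif, and none of the motifs contains another. The ETS letters stood in promoters of genes of every kind of call. With them, 33 of 100 tested genes were higher and 3 lower in MLL2 KO (median log2 fold change 0.34); without them, 29 of 83 were higher and 5 lower (0.31). In PRMT1 KD 48 of 100 with the letters were higher and 5 lower (0.53), and 32 of 83 without them were higher and 6 lower (0.38). A match describes letters in a window and shows no binding.

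Position along the chromosome grouped 240 of the 251 genes into 9 clusters, cut wherever neighbouring starts lay more than 1 Mb apart, and left 11 scattered genes. The median change against control was above 0 in all 9 clusters in MLL2 KO, and in PRMT1 KD in all except the small clusters 1 and 5, with 4 and 5 tested genes. The cluster at 43.5 to 45.1 Mb (cluster 7, ZNF575 to ZNF296) had the highest median in MLL2 KO, 0.58, with 13 of 23 tested genes higher and 0 lower. In PRMT1 KD 13 of the 23 were higher and 1, ZNF428, was lower, with a median of 0.62. The 15 other tested protein-coding genes between its first and last member had medians of -0.09 in MLL2 KO and -0.06 in PRMT1 KD. Of these 15, 4 were higher and 2 lower in MLL2 KO, and 4 were higher and 4 lower in PRMT1 KD. Clusters 3, 6 and 8 each held 2 such genes. Their medians were 0.31, 0.28 and -0.07 in MLL2 KO and -0.08, -0.37 and -0.12 in PRMT1 KD.

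Within cluster 7 lie ZNF224, known as a repressor of the aldolase A gene, and its neighbour ZNF225. ZNF225 had 20.1 and 25 CPM in MLL2 KO, 17.7 and 18.6 CPM in PRMT1 KD and 11.3 and 10.5 CPM in control, with log2 fold changes of 1.05 ± 0.16 in MLL2 KO (adjusted p = 7.4e-05, edgeR) and 0.74 ± 0.16 in PRMT1 KD (adjusted p = 6.6e-04, edgeR). ZNF224 had 43.5 and 51.7 CPM in MLL2 KO, 52.8 and 50.6 CPM in PRMT1 KD and 31.6 and 31.2 CPM in control (log2 fold changes 0.60 ± 0.11 in MLL2 KO and 0.72 ± 0.11 in PRMT1 KD). For both genes every depleted library lay above every control library. ZNF112 also rose in both, by 0.94 in MLL2 KO and 0.84 in PRMT1 KD on the log2 scale. ZNF404 had the largest log2 fold change among those called in the cluster in each depletion. It was 1.36 ± 0.42 in MLL2 KO and 1.57 ± 0.42 in PRMT1 KD, on counts of 51 and 59 in MLL2 KO, 56 and 76 in PRMT1 KD and 21 and 20 in control, and its MLL2 KO call was lost without control replicate 1, control replicate 2 or MLL2 KO replicate 2.

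The largest cluster lies at 55.5 to 58.5 Mb (cluster 9, ZNF628 to ZNF446, 60 genes) and holds ZNF134, ZNF776 and ZNF549. In MLL2 KO 19 of its 53 tested genes were higher and 1 lower (median 0.39), and in PRMT1 KD 25 were higher and 4 lower (median 0.48). Its 17 other tested protein-coding genes had medians of 0.23 in MLL2 KO and 0.29 in PRMT1 KD, with 4 higher and 1 lower in MLL2 KO and 4 higher and 5 lower in PRMT1 KD. ZNF551 had 27.4 and 24.6 CPM in MLL2 KO, 37.2 and 39.8 CPM in PRMT1 KD and 18.3 and 12.3 CPM in control, with log2 fold changes of 0.77 ± 0.16 in MLL2 KO (adjusted p = 0.00118, edgeR) and 1.33 ± 0.15 in PRMT1 KD (adjusted p = 4.4e-07, edgeR). The MLL2 KO call of ZNF551 was lost without control replicate 2. ZNF586 rose by 0.92 in MLL2 KO and 1.04 in PRMT1 KD on the log2 scale. ZNF460, one of the most abundant genes of the family per length, had 55.9 and 64.7 CPM in MLL2 KO, 88.8 and 119 CPM in PRMT1 KD and 58.5 and 56.3 CPM in control. It was called in PRMT1 KD (0.86 ± 0.12, adjusted p = 3.7e-06, edgeR) and not in MLL2 KO (0.07 ± 0.12).

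The counts of calls ran differently in some clusters. In the cluster lying at 19.7 to 24.0 Mb (cluster 4, ZNF101 to ZNF254), 22 of 37 genes were tested, and no other tested protein-coding gene stood among them. In PRMT1 KD 12 of the 22 were higher and 2 lower (median 0.68), and in MLL2 KO 4 were higher and 3 lower (median 0.11). At 36.2 to 37.7 Mb (cluster 6, ZNF565 to ZNF573) the counts ran the other way, with 12 of 26 higher and 1 lower in MLL2 KO (median 0.45) and 7 higher and 1 lower in PRMT1 KD (median 0.21). These cluster medians are descriptions, and the difference between clusters was not tested. At 51.6 to 53.5 Mb (cluster 8, ZNF175 to ZNF331) 9 of 31 were higher and 2 lower in MLL2 KO (median 0.35), and 16 were higher and 0 lower in PRMT1 KD (median 0.61).

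In cluster 4, ZNF431 had 43.6 and 38.4 CPM in MLL2 KO, 65 and 68.1 CPM in PRMT1 KD and 31.2 and 33.3 CPM in control. The groups did not overlap, and the log2 fold change was 1.05 ± 0.11 in PRMT1 KD (adjusted p = 9.0e-08, edgeR) and 0.35 ± 0.11 in MLL2 KO (adjusted p = 0.0255, edgeR), the MLL2 KO call being lost without either control library or MLL2 KO replicate 1. ZNF492 had 11.4 and 9.96 CPM in MLL2 KO, 9.96 and 7.86 CPM in PRMT1 KD and 6.24 and 4.43 CPM in control, with log2 fold changes of 1.0 ± 0.23 in MLL2 KO and 0.74 ± 0.23 in PRMT1 KD; both calls were lost without control replicate 2, and the PRMT1 KD one also without PRMT1 KD replicate 1. In cluster 6, ZNF850 had 27.5 and 27.8 CPM in MLL2 KO, 30.8 and 34 CPM in PRMT1 KD and 19.8 and 16.2 CPM in control, and it was called higher in both, in MLL2 KO not without control replicate 2. In cluster 8, ZNF761 and ZNF28 were higher in both depletions. ZNF761 reached 47.8 and 38.4 CPM in PRMT1 KD, a log2 fold change of 1.27 ± 0.13 (adjusted p = 1.0e-07, edgeR) beside 0.55 ± 0.13 in MLL2 KO, whose call was lost without control replicate 2. ZNF28 had 42.9 and 39.7 CPM in MLL2 KO, 39.3 and 30.7 CPM in PRMT1 KD and 19.8 and 21.7 CPM in control, a log2 fold change of 0.99 ± 0.13 in MLL2 KO (adjusted p = 1.8e-05, edgeR) and 0.75 ± 0.13 in PRMT1 KD (adjusted p = 7.7e-05, edgeR). ZNF701, whose exons overlap ZNF808 on the same strand, had 7.4 and 9.71 CPM in MLL2 KO, 13.3 and 14.5 CPM in PRMT1 KD and 4.99 and 6.5 CPM in control. It was called in PRMT1 KD (1.28 ± 0.21, adjusted p = 3.9e-05, edgeR) and not in MLL2 KO (0.57 ± 0.21). The largest log2 fold change of PRMT1 KD, 2.97 ± 0.95 for ZNF418 in cluster 9, rested on 21 and 23 counts in PRMT1 KD against 4 and 1 in control, and the call was lost without control replicate 2 or either PRMT1 KD library. The readthrough gene ZNF8-ERVK3-1, which shares exons with ZNF8, was higher in PRMT1 KD (1.29 ± 0.28, adjusted p = 6.6e-04, edgeR).

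On the short arm, cluster 2 (ZNF557 to ZNF846, 7.1 to 9.8 Mb) had 6 of 13 tested genes higher and 0 lower in MLL2 KO (median 0.29) and 7 higher and 2 lower in PRMT1 KD (median 0.45). The 29 other tested protein-coding genes inside it had medians of -0.25 in MLL2 KO and -0.09 in PRMT1 KD. Its ZNF317 had 78.1 and 73.7 CPM in MLL2 KO, 100.1 and 106 CPM in PRMT1 KD and 49.5 and 50.8 CPM in control. The 3 groups did not overlap, and the log2 fold change was 0.60 ± 0.09 in MLL2 KO (adjusted p = 9.3e-05, edgeR), 1.04 ± 0.09 in PRMT1 KD (adjusted p = 1.1e-08, edgeR) and 0.44 ± 0.09 for PRMT1 KD over MLL2 KO (adjusted p = 4.4e-04, edgeR). Cluster 3 (ZNF653 to ZNF791, 11.5 to 12.6 Mb) had 3 of 17 higher and 1 lower in MLL2 KO, and 4 higher and 0 lower in PRMT1 KD. Among the higher genes there, ZNF440 had the smallest adjusted p in MLL2 KO, with 38.2 and 37.5 CPM in MLL2 KO, 24.4 and 23.9 CPM in PRMT1 KD and 22.9 and 24.5 CPM in control (0.68 ± 0.12, adjusted p = 3.5e-04, edgeR), and it was not called in PRMT1 KD (0.03 ± 0.12). ZNF136 had the smallest one in PRMT1 KD, with log2 fold changes of 0.77 ± 0.14 in MLL2 KO and 0.80 ± 0.14 in PRMT1 KD. In cluster 1 (ZNF554 to ZNF77) none of the 4 tested genes was higher in either depletion, and in cluster 5 (ZNF302 to ZNF792) 1 of 5 was, ZNF30, at 0.64 ± 0.16 in MLL2 KO and 0.53 ± 0.16 in PRMT1 KD. The call of ZNF30 in MLL2 KO was lost without control replicate 1 or MLL2 KO replicate 2, and that in PRMT1 KD without control replicate 1.

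**Figure D3:**
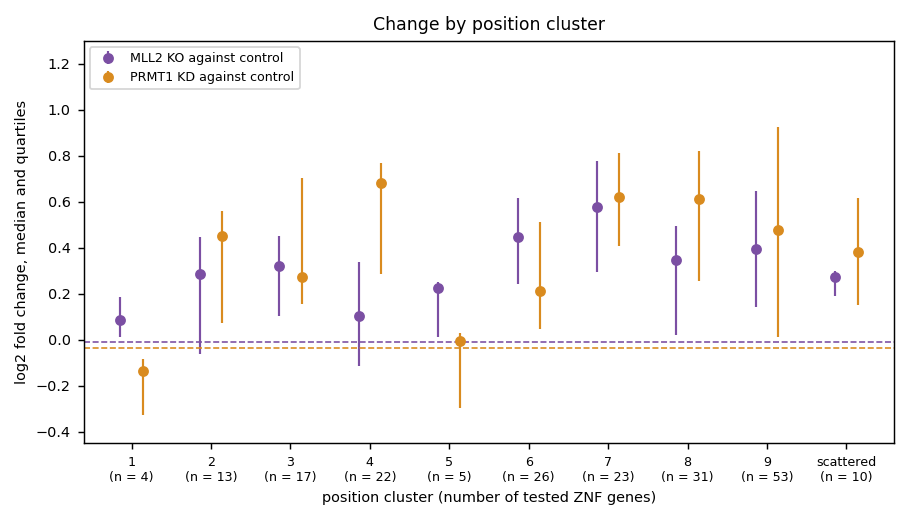
Median (point) and quartiles (line) of the log2 fold change of tested chromosome 19 ZNF genes in each position cluster, for MLL2 KO and PRMT1 KD against control; dashed lines are the medians over all genes tested, -0.01 and -0.04. The medians are 0.58 in MLL2 KO and 0.62 in PRMT1 KD for cluster 7, and 0.11 and 0.68 for cluster 4.

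A small set of genes in MLL2 KO went far in the other direction. All 9 lower genes had modest levels, with control means between 1.39 and 12.5 CPM. The first, ZNF433, had 0.139 and 0.196 CPM in MLL2 KO (3 and 4 counts), 2.27 and 2.46 CPM in PRMT1 KD and 2.35 and 3.54 CPM in control (47 and 72 counts). Its knockout libraries lay far below the other 4, with a log2 fold change of -4.09 ± 0.59 against control (adjusted p = 4.2e-05, edgeR), and the log2 fold change in PRMT1 KD was -0.31 ± 0.43 and not called. ZNF813 had 2 and 1 counts in MLL2 KO, 40 and 35 counts in PRMT1 KD and 27 and 29 counts in control. The ratio of MLL2 KO to control, scaled for library size, was 0.0515, with an exact 95% interval of 0.0103 to 0.158 that covers counting error only (adjusted p = 9.2e-04, edgeR). ZNF737 had 1.16 and 0.589 CPM in MLL2 KO, 6.72 and 5.97 CPM in PRMT1 KD and 5.34 and 5.61 CPM in control, a log2 fold change of -2.63 ± 0.35 for MLL2 KO (adjusted p = 1.7e-05, edgeR).

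ZNF793 had 0.555 and 0.343 CPM in MLL2 KO, 2.61 and 2.77 CPM in PRMT1 KD and 4.89 and 3.30 CPM in control (MLL2 KO log2 fold change -3.16 ± 0.46, adjusted p = 5.4e-05, edgeR). ZNF682 had 8 and 0 counts in MLL2 KO, 55 and 65 in PRMT1 KD and 24 and 41 in control (-3.05 ± 0.75, adjusted p = 0.00555, edgeR), and its call was lost without control replicate 2. ZNF83 had 0.878 and 0.245 CPM in MLL2 KO, 2.71 and 2.77 CPM in PRMT1 KD and 3.14 and 3.74 CPM in control (-2.59 ± 0.50, adjusted p = 7.4e-04, edgeR). In each of these 3 the knockout libraries lay below all 4 others. The rule for naming genes by largest change asked for separation from both control libraries, so that part adds no support. None of the tested family members next to the 7 genes that fell by 2-fold or more was called lower. However, few such members were tested, and ZNF433, ZNF682 and ZNF737 had no tested member next to them. With 4.41% of the tested ZNF genes called lower in MLL2 KO, so few neighbours cannot show whether the falls were confined to single genes. The member before ZNF813, ZNF761, lies 22732 bases upstream by start position and rose in MLL2 KO to 25.7 and 26.7 CPM, against 18.4 and 17.4 CPM in control (0.55 ± 0.13, adjusted p = 0.0049, edgeR). ZNF570, the member before ZNF793, rose as well, to 19 and 19.4 CPM against 13.8 and 11.4 CPM in control (0.61 ± 0.16, adjusted p = 0.00853, edgeR). The other nearest members were not called or not tested.

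ZNF506 moved in opposite directions. It had 1.11 and 0.589 CPM in MLL2 KO, 5.17 and 5.53 CPM in PRMT1 KD and 1.90 and 2.46 CPM in control. The 3 groups did not overlap, which the rule for naming it asked for. ZNF506 was lower in MLL2 KO (-1.35 ± 0.42, adjusted p = 0.0238, edgeR) and higher in PRMT1 KD (1.29 ± 0.36, adjusted p = 0.0058, edgeR). The MLL2 KO call was lost without control replicate 2 or MLL2 KO replicate 2 and when only those groups were fitted, and the PRMT1 KD call without control replicate 1. PRMT1 KD over MLL2 KO was 2.64 ± 0.40 (adjusted p = 2.1e-05, edgeR). ZNF497 was the gene called lower in both, with 3.65 and 3.63 CPM in MLL2 KO, 2.76 and 1.93 CPM in PRMT1 KD and 5.14 and 8.27 CPM in control. Its MLL2 KO call (-0.88 ± 0.30, adjusted p = 0.0419, edgeR) was lost with DESeq2, with a GC and length offset, and without control replicate 2 or either MLL2 KO library.

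The genes higher in MLL2 KO and not called in PRMT1 KD included ZNF426, ZNF320 and ZNF146. ZNF426 had 62.1 and 51.3 CPM in MLL2 KO, 26.1 and 29.3 CPM in PRMT1 KD and 29.8 and 22.9 CPM in control. Its PRMT1 KD and control libraries overlapped, the MLL2 KO log2 fold change was 1.11 ± 0.13 (adjusted p = 6.6e-06, edgeR), and PRMT1 KD over MLL2 KO was -1.03 ± 0.13 (adjusted p = 2.7e-06, edgeR). ZNF320 had 26.7 and 32.5 CPM in MLL2 KO, 12.7 and 13.8 CPM in PRMT1 KD and 16.8 and 16.5 CPM in control, and PRMT1 KD over MLL2 KO was -1.16 ± 0.15 (adjusted p = 2.3e-06, edgeR). ZNF146, a protein of zinc fingers with no KRAB domain, had the highest control level per length of the tested genes, 66.6 CPM per kb. It had 389 and 367 CPM in MLL2 KO, 332 and 294 CPM in PRMT1 KD and 276 and 276 CPM in control. The MLL2 KO log2 fold change was 0.45 ± 0.08 (adjusted p = 5.1e-04, edgeR), and the PRMT1 KD one, 0.18 ± 0.08, was not called. ZNF382, reported as a repressor of AP-1 and NF-kB targets, rose in MLL2 KO (0.77 ± 0.18, adjusted p = 0.00439, edgeR), a call lost without control replicate 1.

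In PRMT1 KD the 12 lower genes had a median transcript GC content of 57.6%, and the 90 higher genes one of 43.8%. ZNF536, a negative regulator of neuronal differentiation, had 27.4 and 28.8 CPM in MLL2 KO, 6.87 and 7.33 CPM in PRMT1 KD and 22.9 and 23.5 CPM in control. It fell in PRMT1 KD by 1.71 ± 0.15 on the log2 scale (adjusted p = 1.1e-08, edgeR) and was not called in MLL2 KO (0.28 ± 0.14). ZNF428 had 45.7 and 47.9 CPM in MLL2 KO, 23.2 and 22.6 CPM in PRMT1 KD and 41.7 and 50.2 CPM in control. Its PRMT1 KD libraries lay below the other 4 (-1.01 ± 0.12, adjusted p = 5.5e-07, edgeR), and its MLL2 KO log2 fold change was 0.02 ± 0.11. ZNF358 fell by 1.15 ± 0.20 on the log2 scale in PRMT1 KD (adjusted p = 6.9e-05, edgeR), and ZNF580, whose exons overlap ZNF581 on the same strand, fell by 1.44 ± 0.36 (adjusted p = 0.00239, edgeR). ZNF554, ZNF446 and ZNF846 fell by 0.85, 0.87 and 1.13 on the log2 scale. ZNF726 had 1.98 and 6.14 CPM in PRMT1 KD and 7.69 and 7.38 CPM in control, and its call (-0.88 ± 0.34, adjusted p = 0.039, edgeR) was lost with DESeq2, with only the groups compared, and without either control library or PRMT1 KD replicate 1.

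**Figure D4:**
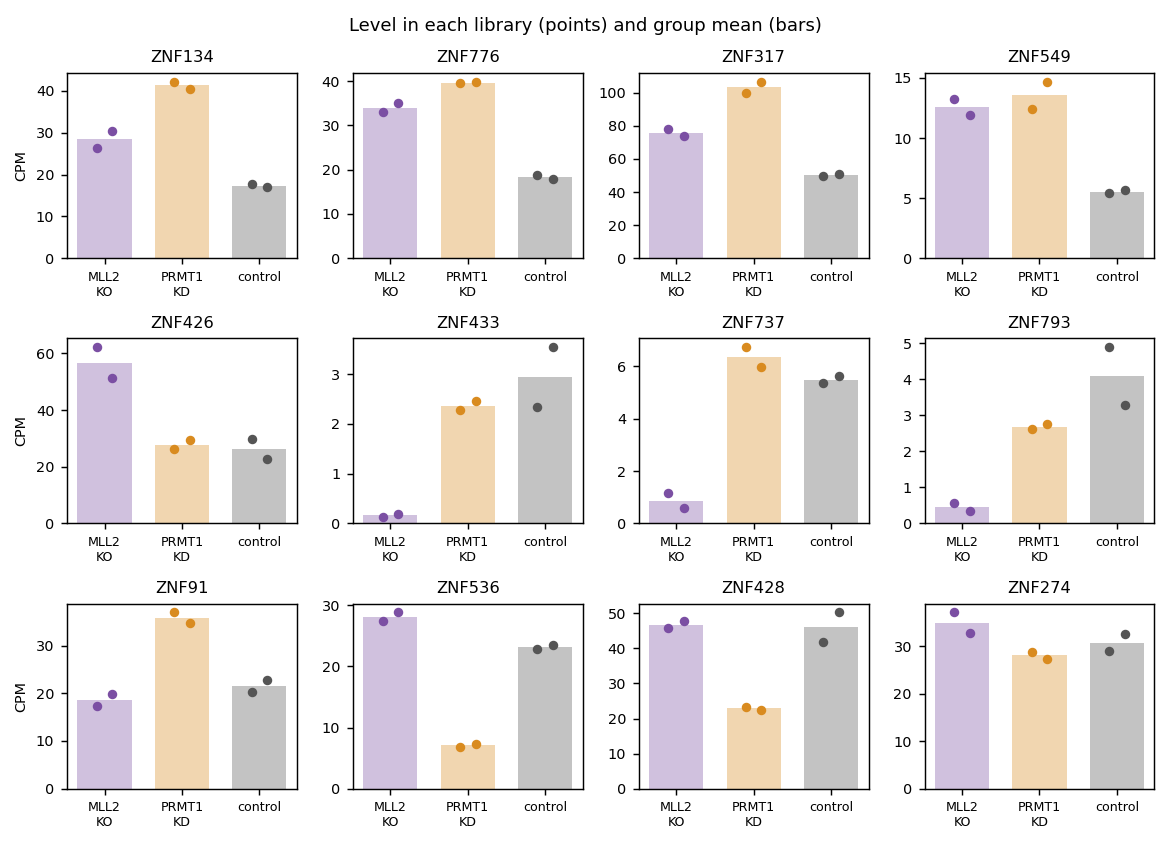
CPM of 12 chromosome 19 ZNF genes in each library (points) with group means (bars, n = 2), in MLL2 KO, PRMT1 KD and control; each panel has its own scale from 0. ZNF134, ZNF776, ZNF317 and ZNF549 stand above control in both depletions, and ZNF426 does so in MLL2 KO. ZNF433, ZNF737 and ZNF793 are near 0 in MLL2 KO, and ZNF536 and ZNF428 are low in PRMT1 KD.

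Several members with a known function fell in different call groups. ZNF91, which represses SVA retroelements, had 17.2 and 19.8 CPM in MLL2 KO, 36.9 and 34.8 CPM in PRMT1 KD and 20.2 and 22.8 CPM in control, higher in PRMT1 KD (0.74 ± 0.13, adjusted p = 8.7e-05, edgeR) and not called in MLL2 KO (-0.22 ± 0.13). ZNF675, which interacts with TRAF6, had 25.4 and 23.4 CPM in MLL2 KO, 33.9 and 29.1 CPM in PRMT1 KD and 19.9 and 17.8 CPM in control; it was called in PRMT1 KD (0.74 ± 0.13, adjusted p = 1.1e-04, edgeR). ZNF473, which takes part in the 3′ end processing of histone mRNAs, had 57.3 and 60.6 CPM in MLL2 KO, 79.1 and 75.5 CPM in PRMT1 KD and 52.5 and 51.9 CPM in control, higher in PRMT1 KD (0.57 ± 0.09, adjusted p = 4.4e-05, edgeR). In all 3 genes the PRMT1 KD pair lay above the other 4 libraries. ZNF568, which in mouse silences a placental Igf2 transcript, fell by 0.59 ± 0.18 on the log2 scale in PRMT1 KD (adjusted p = 0.00885, edgeR), a call lost without control replicate 1. ZNF274 had 37.2 and 32.8 CPM in MLL2 KO, 28.9 and 27.4 CPM in PRMT1 KD and 29 and 32.6 CPM in control and was not called in either comparison with control (0.18 ± 0.12 in MLL2 KO, -0.13 ± 0.12 in PRMT1 KD). ZNF524, a telomere-binding protein, the imprinted ZNF331 and ZNF808, which acts in pancreas development, were not called in either.

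The 47 genes that were not tested never passed 21 counts in any library. They include ZNF93, which represses LINE-1 elements and had 0 and 0 counts in MLL2 KO, 4 and 4 in PRMT1 KD and 0 and 3 in control. ZNF558 had 0 counts in all 6 libraries, and ZNF541, a meiotic protein, had at most 4 in any. With no count filter 34 of them could be fitted by edgeR. ZNF20 was then called lower in MLL2 KO, with 0 and 0 counts there against 1 and 21 in control, none was called in PRMT1 KD against control, where 0 had an unadjusted p under 0.05, and ZNF257 and ZNF98 were called higher in PRMT1 KD than in MLL2 KO. Summed over the 47, the counts were 30 and 45 in MLL2 KO, 83 and 80 in PRMT1 KD and 57 and 83 in control.

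Levels per length were low in the family. In control cells the tested genes had a median of 2.29 CPM per kb, with a range of 0.0276 to 66.6. The median was 3.76 CPM per kb for ZNF genes on other chromosomes, 4.27 for the other protein-coding genes of chromosome 19 and 5.02 for all tested protein-coding genes. After ZNF146 the highest control levels per length were those of ZNF428 at 29.6, ZNF121 at 22.5, ZNF581 at 21.8, ZNF460 at 14.3 and ZNF302 at 11.9 CPM per kb. Of these 6, ZNF146 and ZNF121 were called higher in MLL2 KO and ZNF121 and ZNF460 in PRMT1 KD, while ZNF428 and ZNF581 were called lower in PRMT1 KD and ZNF302 was called in neither. ZNF121 had 213 and 225 CPM in MLL2 KO, 227 and 219 CPM in PRMT1 KD and 158 and 169 CPM in control, a log2 fold change of 0.42 ± 0.08 in MLL2 KO and 0.45 ± 0.08 in PRMT1 KD. The call of ZNF581 in PRMT1 KD (-0.41 ± 0.12) was lost with a length offset, with a GC and length offset, and without control replicate 2 or PRMT1 KD replicate 2. The 69 higher genes had control means of 1.02 to 276 CPM with a median of 18 CPM.

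Base composition went with change across all genes in both depletions, and exonic length did so mainly in PRMT1 KD. The PRMT1 KD libraries also differed from each other by length. Over all genes, replicate 2 minus replicate 1 had a median of -0.08 log2 units at 2000 to 4000 nt and 0.10 at 8000 nt and over. The ZNF genes were therefore set beside all genes of like length and GC content. Among genes of 4000 to 8000 nt, the 120 tested ZNF genes of chromosome 19 had medians of 0.36 in MLL2 KO and 0.55 in PRMT1 KD, against 0.01 and -0.02 for all genes of that length. Among genes of 2000 to 4000 nt, 45 had medians of 0.28 and 0.22, against -0.02 and -0.15. The 35 genes of 8000 nt and over had medians of 0.32 and 0.45, against -0.0022 and 0.13. Only 4 tested genes were shorter than 2000 nt. Their medians were -0.12 in MLL2 KO and -0.37 in PRMT1 KD, against -0.06 and -0.12 for all genes of that length. None of the 4 was called higher in either depletion, and 2 were called lower in PRMT1 KD. The transcripts of the chromosome 19 ZNF genes were poorer in GC than those of their neighbours, with a median of 44.4%, against 60.8% for other protein-coding genes of chromosome 19 and 48.7% over all genes tested. At a GC content under 42% the medians were 0.33 in MLL2 KO and 0.52 in PRMT1 KD, against 0.09 and 0.17 for all genes. Between 42 and 46% they were 0.42 and 0.51, against 0.04 and 0.05, and at 46% and over 0.30 and 0.40, against -0.06 and -0.14. With a smooth offset for GC and length in the edgeR fit, the median was 0.29 in MLL2 KO and 0.40 in PRMT1 KD. The GC classes were chosen after the data had been seen.

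**Figure D5:**
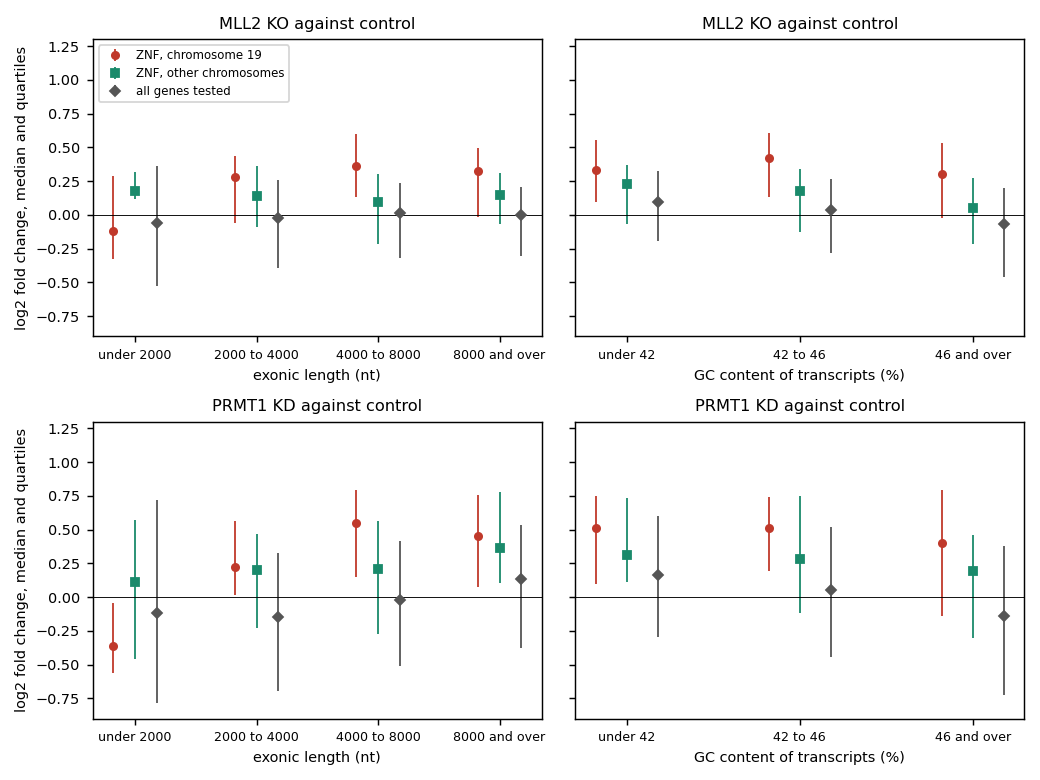
Median (point) and quartiles (line) of the log2 fold change in classes of exonic length (left) and transcript GC content (right), for MLL2 KO (top) and PRMT1 KD (bottom) against control. In every class of 2000 nt and over and in every GC class, the chromosome 19 ZNF genes have a median above that of all genes tested, such as 0.55 against -0.02 at 4000 to 8000 nt in PRMT1 KD.

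The 2 sets nearest to the group by name and by place had lower medians in both depletions. ZNF genes on other chromosomes had a median of 0.13 in MLL2 KO, with 48 of 234 tested higher and 19 lower, and of 0.27 in PRMT1 KD, with 101 higher and 34 lower. In MLL2 KO these were 20.5% higher and 8.12% lower, against 33.8% and 4.41% of the chromosome 19 ZNF genes. In PRMT1 KD the higher shares were nearly the same, 43.2% against 44.1%, and the lower shares were 14.5% and 5.88%. For PRMT1 KD over MLL2 KO, 32.5% of the ZNF genes elsewhere were higher, against 21.6%. The other protein-coding genes of chromosome 19 had medians of -0.05 in MLL2 KO and -0.17 in PRMT1 KD, with 65 of 729 higher and 101 lower in MLL2 KO and 130 higher and 262 lower in PRMT1 KD. These differences between sets are descriptions and were not tested.

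A list of 31 genes for silencing by KRAB zinc finger proteins, taken from textbook knowledge, did not move as 1 group. It also holds wider silencing factors such as DNMT3A and UHRF1, and ZNF274, itself one of the chromosome 19 ZNF genes. All 31 were tested, and 3 were higher and 1 lower in MLL2 KO (median log2 fold change 0.10). These were 9.68% and 3.23%, beside 10.3% and 12.1% of all genes. In PRMT1 KD 6 were higher and 8 lower (median -0.06), 19.4% and 25.8% beside 22.2% and 25.3%. TRIM28, the scaffold that KRAB binds, had 448 and 485 CPM in MLL2 KO, 406 and 441 CPM in PRMT1 KD and 394 and 393 CPM in control, higher in MLL2 KO (0.25 ± 0.08, adjusted p = 0.0339, edgeR) and not called in PRMT1 KD (0.11 ± 0.08). SETDB1, the methyltransferase of the complex, had 98.7 and 102 CPM in MLL2 KO, 69.2 and 76.4 CPM in PRMT1 KD and 119 and 109 CPM in control. It fell by 0.65 ± 0.09 on the log2 scale in PRMT1 KD (adjusted p = 4.8e-06, edgeR) and was not called in MLL2 KO (-0.19 ± 0.09). ATF7IP, the nuclear partner of SETDB1, rose in PRMT1 KD by 1.27 ± 0.11 on the log2 scale (adjusted p = 1.1e-08, edgeR), to 77.7 and 97.3 CPM against 36.7 and 36.1 CPM in control. CBX5, which encodes HP1 alpha, was lower in MLL2 KO (-0.45 ± 0.12, adjusted p = 0.0102, edgeR) and higher in PRMT1 KD (0.44 ± 0.12, adjusted p = 0.00468, edgeR). DNMT3A, a de novo DNA methyltransferase, fell by 1.23 ± 0.14 in PRMT1 KD (adjusted p = 3.6e-07, edgeR) and UHRF1, which directs maintenance methylation, rose by 0.41 ± 0.09 in MLL2 KO and 0.33 ± 0.09 in PRMT1 KD, all on the log2 scale. Of the PRMT1 KD calls with small adjusted p, MORC3 and MORC2, chromatin ATPases, rose by 0.84 and 0.63 on the log2 scale, and SUMO2, a protein modifier, fell by 0.54. DAXX, a histone H3.3 chaperone, rose in MLL2 KO by 0.41. What these changes have to do with the levels of the ZNF genes was not tested.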

How the data were processed

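Counts of reads per gene, unnormalized, were deposited by the authors in 1 file per library. The submitters' processing notes name Trim Galore 0.6.10, STAR 2.7.5a, featureCounts 1.5.0-p1 and the hg38 build. The file headers give version 2.0.1 of featureCounts, GENCODE 34, a mapping quality of 10 or more and strand setting 2, so versions differ between these sources. Reads shared by near-identical zinc finger genes score low in mapping quality, so counts of recent duplicates hold only reads that could be placed; 4 of the 251 genes are readthrough genes and 91 overlap another gene's exons on the same strand. Gene names matched 60370 of 60669 IDs; biotype and GC content came from GENCODE 29.

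Groups came from the sample titles. edgeR 4.0.16 (R 4.3.3) fitted all 6 libraries with 1 term per group, TMM scaling, filterByExpr and the quasi-likelihood test, with 3 residual degrees of freedom. The SE is the log2 fold change over the root of its F value. Alternatives were other scalings, filters, DESeq2 1.42.0, offsets for length and GC, a replicate block, and leaving out each library. The genes and lists were chosen with earlier results of these data known. Named genes were, per comparison and direction, those called with the largest change, a mean of 1 CPM or more where higher and groups that do not overlap; the smallest adjusted p in each cluster; the highest levels per kb; and members of known role. ZNF570, ZNF440, ZNF20, ZNF257 and ZNF98 were named outside these rules, after their values were seen. Promoters came from RefSeq (GRCh38.p14). Protein sequences were not used here.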

Additional observations from a re-analysis of the deposited data

How the results depend on the processing

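Most changes of scaling, filters, the fit and the set of genes moved the medians of the tested genes by more than 0.0058 log2 units, and no result changed direction. That value is the pooled standard deviation of the per-library medians within groups. Smaller moves were 0.3283 in MLL2 KO against control with at least 1 CPM in 2 libraries and, in PRMT1 KD against MLL2 KO, 0.0911 with a length offset, 0.0994 with only the groups compared and 0.0919 without readthrough genes. The larger ones follow. In MLL2 KO against control the median was 0.3439 with relative log expression scaling, 0.2934 with no count filter, 0.3171 with protein-coding genes only, 0.3380 with a length offset, 0.2941 with a GC and length offset, 0.3354 with only the groups compared, 0.3085 with DESeq2, 0.3354 without readthrough genes, 0.3067 without genes with same-strand exon overlap and 0.3354 without genes under 1 CPM in the control mean. In PRMT1 KD against control it was in the same order 0.5145, 0.4925, 0.5051, 0.4515, 0.3981, 0.5162, 0.5017, 0.4637, 0.4142 and 0.4393, and 0.4605 with at least 1 CPM in 2 libraries. In PRMT1 KD against MLL2 KO it was 0.1122 with relative log expression scaling, 0.1282 with no count filter, 0.1084 with at least 1 CPM in 2 libraries, 0.1291 with protein-coding genes only, 0.0854 with a GC and length offset, 0.1213 with DESeq2, 0.0716 without same-strand overlap and 0.0863 without genes under 1 CPM. Leaving out the 75 genes with same-strand overlap, which leaves 129, gave 4 lower in MLL2 KO, 54 higher and 5 lower in PRMT1 KD, and 26 higher in PRMT1 KD against MLL2 KO. The setting without genes under 1 CPM was chosen after seeing the data. Cutting clusters at gaps of 0.5 and 2 Mb gave 10 and 6 clusters.

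Leaving out each library in turn gave 44 to 91 higher and 5 to 12 lower in MLL2 KO (median 0.3255 to 0.3474), 75 to 89 higher and 9 to 14 lower in PRMT1 KD (median 0.4383 to 0.4823), and 27 to 44 higher and 18 to 27 lower in PRMT1 KD against MLL2 KO (median 0.0563 to 0.1197). Same-numbered libraries deviated together with correlations of 0.063 (MLL2 KO and control), 0.044 (PRMT1 KD and control) and 0.197 (PRMT1 KD and MLL2 KO) over 11509 genes, so the numbers were not taken as pairs. With the number as a block, 79 were higher and 9 lower in MLL2 KO (median 0.3327), 94 and 13 in PRMT1 KD (median 0.4730), and 45 and 27 in PRMT1 KD against MLL2 KO. The cause of these movements was not tested. With 2 libraries a group, few degrees of freedom limit precision, and genes of low count carry wide errors.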
